A study of Caenorhabditis elegans with 6 samples.

Results

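The aquaporin genes of *C. elegans*, which encode channels for water and glycerol, were examined in the transcriptomes of worms fed with control or *Y37A1B.5* RNAi bacteria. The members were taken by gene name and identifier. They are *aqp-1* to *aqp-8*, *aqp-10* and *aqp-11*, 10 of the 46739 genes in the count table, and 9 of them were among the 15003 genes that passed the filter on low counts. *aqp-5* did not pass. The family was selected on results of the same contrast, the log2 fold changes and adjusted p values from these counts, so the differences, intervals and adjusted p values of its members are given as a description. RNA came from wild-type Bristol N2 worms kept at 20 °C, which were moved as young adults to *E. coli* HT115 and fed for 5 days. The 3 control libraries come from worms fed bacteria with the empty L4440 vector, and the 3 others, labelled Y37A1B.5 RNAi, from worms fed bacteria with a fragment of *Y37A1B.5* in the same vector. Each library represents a lysate of many whole worms from one of 3 independent experiments. In such lysates, fewer cells of a type and less RNA per cell cannot be told apart.

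Aquaporins are small membrane proteins with a pore lined by a pair of short loops. Orthodox members pass water, and aquaglyceroporins pass glycerol and other small solutes as well. In worms, they are known from the intestine, the epidermis and the excretory cell, which is a large H-shaped cell whose canals remove fluid. In *Xenopus* oocytes, AQP-2, AQP-3, AQP-4, AQP-6 and AQP-7 are known to raise water permeability, and AQP-1, AQP-3 and AQP-7 to raise glycerol permeability. Glycerol is the main osmolyte that worms make when the medium becomes salty. *aqp-1* is also known from work on glucose feeding, where its level depends on the insulin pathway.

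A library held between 34403223 and 46733527 counts. *Y37A1B.5*, the gene the plasmid targets, had a level of 32.8, 35.8 and 21.8 CPM, which are counts scaled to the size of the library, in control replicates 1 to 3 and 143, 79.1 and 104 CPM in replicates 1 to 3 labelled Y37A1B.5 RNAi. This count goes against the label, and the second group is therefore named by its label throughout. In contrast to this count, the study reports by qRT-PCR that feeding for the same time strongly lowered the mRNA of the targeted gene. The study also reports a weaker signal of a GFP fusion of its protein under this RNAi. It was not tested whether the reads came from worm mRNA or from the RNAi construct. Of the 15003 genes, 2050 (13.7%) had an adjusted p under 0.05 in edgeR's quasi-likelihood test, with 4.81% of all genes higher under the RNAi label and 8.85% lower. Leaving out control replicate 1, control replicate 2 or labelled replicate 1 reduced the count to 862, 727 or 1346. Labelled replicate 3 stood apart from the other 2 labelled libraries, with a median absolute log2 difference per gene of 0.184 to 0.202, against 0.101 between those 2.

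The aquaporins covered a wide range of levels. Levels are comparable between genes only per length, so CPM were divided by the kilobases of exon of each gene, which span 900 to 1714 bp in this family. In the control, *aqp-2* stood first with 94.3 ± 8.30 CPM per kilobase (SD, n = 3) and *aqp-1* followed with 67.0 ± 18.4 CPM per kilobase. *aqp-10* and *aqp-7* came next with 31.6 ± 1.97 and 30.6 ± 3.62 CPM per kilobase, then *aqp-8* and *aqp-11* with 22.6 ± 3.67 and 20.5 ± 1.69 CPM per kilobase. These 6 genes were well above the rest. *aqp-4* had 6.10 ± 0.753, *aqp-6* 3.34 ± 0.452, *aqp-3* 0.817 ± 0.134 and *aqp-5* 0.287 ± 0.103 CPM per kilobase, so that the first gene of the order was 328 times above the last. Ranges over the 3 control libraries overlapped for *aqp-10* and *aqp-7* and for *aqp-8* and *aqp-11*. The other neighbours in the order did not overlap, although *aqp-2* and *aqp-1* were separated by only 85.7 against 83.3 CPM per kilobase at the nearest libraries. Among the tested genes with a known length, *aqp-2* lay at the percentile 91.5 of levels per kilobase in the control, *aqp-1* at 86.0 and *aqp-3* at 16.8.

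**Figure D1:**
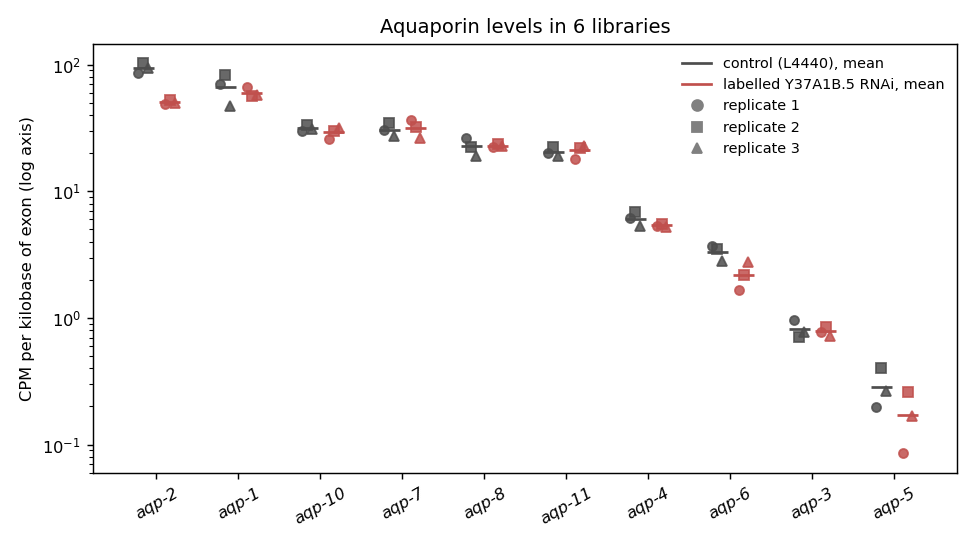
Level of each aquaporin gene in CPM per kilobase of exon (log axis) in the 3 control libraries (gray) and the 3 libraries labelled Y37A1B.5 RNAi (red), with the replicate number as the symbol and the mean as a line. The groups are apart for *aqp-2*, 85.7 to 102 against 48.8 to 52.8 CPM per kilobase, and just apart for *aqp-6*, and they overlap for the other 8 genes.

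In the labelled libraries, *aqp-1* stood first with 60.2 ± 5.44 CPM per kilobase (SD, n = 3) and *aqp-2* second with 50.3 ± 2.15, and the ranges of *aqp-7* and *aqp-10* overlapped again. From the fifth place on, the order of both groups was identical. *aqp-1* lay between 56.3 and 66.4 CPM per kilobase there and *aqp-2* between 48.8 and 52.8, and the ranges of the pair did not overlap.

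*aqp-2* (WBGene00000170, chromosome II, 9259048 to 9261981, minus strand of WBcel235) encodes a water channel known from osmoregulatory tissues. The reads counted were 4189, 5276 and 4909 for control and 2352, 3346 and 2837 for labelled replicates 1 to 3. On the CPM scale, these are 122, 146 and 135 against 69.5, 75.2 and 70.4. Each labelled library was thus lower than each control library, and the labelled libraries lay close together. The mean went from 134 ± 11.8 to 71.7 ± 3.07 CPM (SD, n = 3), 1.87-fold lower. On the log2 scale this is −0.91 ± 0.080 (standard error), with a 95% interval of −1.08 to −0.73 and an edgeR adjusted p of 0.000521. By its unadjusted p it ranked 8 among the 15003 genes, and by the size of its change 351. It was the only aquaporin called, 1 of the 9 tested, beside 13.7% of all genes called in either direction and 8.85% called lower. Between libraries of the same number, the log2 differences were −0.81, −0.95 and −0.94. Without labelled replicate 3, the log2 fold change was −0.89 (edgeR adjusted p = 0.000111). No other annotated gene overlaps *aqp-2*.

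*aqp-6* (WBGene00000174, chromosome V, 10648446 to 10651997, plus strand) encodes a water channel as well. Its reads numbered 150, 151 and 122 for control and 67, 116 and 131 for labelled replicates 1 to 3. On the CPM scale, these are 4.38, 4.17 and 3.36 against 1.98, 2.61 and 3.25. The groups did not overlap, but the highest labelled library, replicate 3, came near the lowest control library. The mean was 3.97 ± 0.536 CPM (SD, n = 3) for control and 2.61 ± 0.636 CPM for labelled libraries. The fitted difference was −0.59 ± 0.18 (standard error) on the log2 scale, with a 95% interval of −0.99 to −0.19, and its edgeR adjusted p of 0.0548 misses the threshold. Without labelled replicate 3, it was −0.77 (edgeR adjusted p = 0.0172), and without labelled replicate 1 −0.42 (edgeR adjusted p = 0.136). On the opposite strand, the noncoding gene *C32C4.10* and the protein-coding *ugt-35*, which did not pass the filter, overlap its exons, and counting was by strand. *aqp-2* and *aqp-6* were the 2 members of 10 without overlap between groups. Both were lower, beside 22.1% of all genes tested that were lower without overlap and 40.5% in either direction.

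**Figure D2:**
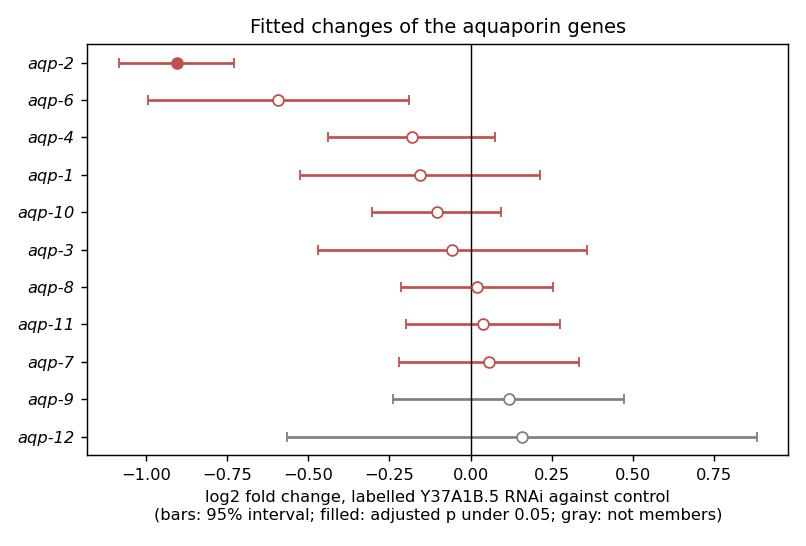
Log2 fold change of the 9 tested aquaporin members (red) and of *aqp-9* and *aqp-12* (gray), labelled Y37A1B.5 RNAi against control, with 95% intervals. The interval of *aqp-2* (−1.08 to −0.73) and that of *aqp-6* (−0.99 to −0.19) lie below 0, and those of the other genes include 0.

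The other 7 tested members had log2 fold changes from −0.18 to 0.056, at edgeR adjusted p values of 0.295 to 0.91, and their 95% intervals reached from −0.53 at the lowest to 0.36 at the highest. Each of these 7 intervals included 0, so a change was not detected for any of these genes. The bounds come from different genes, and the width of the interval differs by gene. Over all 9 tested members, 6 fitted values were negative and 3 positive, and the median was −0.10 beside −0.028 for all genes tested.

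Among the glycerol channels, *aqp-1* (WBGene00000169, chromosome II, 7235828 to 7238349, minus strand) had 72.9, 86.0 and 48.6 CPM in control replicates 1 to 3 and 68.5, 58.1 and 59.7 CPM in labelled replicates 1 to 3. All labelled libraries were inside the control range, which was set by control replicates 2 and 3. Its difference was −0.16 ± 0.17 (standard error) on the log2 scale, at an edgeR adjusted p of 0.541. It turned to 0.032 without control replicate 2 and went to −0.35 without control replicate 3 (edgeR adjusted p of 0.919 and 0.0576). The fitted value of *aqp-1* was negative in 13 of 14 alternatives, and only leaving out control replicate 2 turned its sign. Its biological coefficient of variation, the spread between replicates beyond counting error, was 14.5%, against a median of 7.31% for the 500 tested genes nearest to it in level. *aqp-2*, at 7.59%, was near the 7.19% of its own 500 nearest genes.

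*aqp-7* (WBGene00000175, chromosome X, 3025063 to 3026974, plus strand), which passes water and glycerol, had 37.5, 42.5 and 33.6 CPM in the control and 45.5, 40.2 and 32.4 CPM in labelled replicates 1 to 3. The groups overlapped over most of their range, with a log2 fold change of 0.056 (95% interval −0.22 to 0.33). *aqp-3* (WBGene00000171, chromosome IV, 10961229 to 10966459, minus strand), a channel for both solutes known from the excretory cell, was counted 37 to 48 times per control library and 38 to 55 times per labelled library. Its log2 fold change was −0.056 with a wider 95% interval of −0.47 to 0.36. Leaving out a library turned the sign of both, to −0.045 for *aqp-7* without labelled replicate 1 and to 0.080 for *aqp-3* without control replicate 1.

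Of the genes tied to a single osmoregulatory tissue, *aqp-4* (WBGene00000172, chromosome V, 9737556 to 9739740, plus strand) encodes a water channel of the intestine. It had 6.59, 7.35 and 5.73 CPM in the control and 5.76, 5.91 and 5.66 CPM in the labelled libraries, of which replicate 3 lies just under the lowest control library and the others near it. Its log2 fold change was −0.18 (95% interval −0.44 to 0.075). *aqp-8* (WBGene00000176, chromosome X, 4702167 to 4704977, minus strand), known from the excretory cell, had 45.2, 38.5 and 32.7 CPM in the control and 38.5, 40.4 and 39.2 CPM in the labelled libraries. The labelled libraries fell within the control range, and the log2 fold change was 0.021 (95% interval −0.21 to 0.26). Without control replicate 3, the log2 fold change of *aqp-8* was −0.088 (edgeR adjusted p = 0.522), and it also turned with upper-quartile scaling, to −0.013.

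*aqp-10* (WBGene00000178, chromosome II, 9768458 to 9769847, minus strand) and *aqp-11* (WBGene00000179, chromosome III, 13673280 to 13674739, plus strand) are less studied. *aqp-10* had 29.3, 33.1 and 30.7 CPM in the control against 25.7, 29.6 and 31.3 CPM, a log2 fold change of −0.10 (95% interval −0.30 to 0.094). *aqp-11* had 18.0, 20.2 and 17.2 CPM in the control against 16.2, 19.9 and 20.7 CPM, a log2 fold change of 0.037 (95% interval −0.20 to 0.27). Both overlapped between groups, and *aqp-11* turned to −0.023 without labelled replicate 3. *aqp-5* (WBGene00000173, chromosome V, 10491743 to 10493256, plus strand) was counted 7, 15 and 10 times in control replicates 1 to 3 and 3, 12 and 7 times in labelled replicates 1 to 3. A fit without the filter gave −0.67 on the log2 scale with a 95% interval of −1.55 to 0.21 (edgeR adjusted p = 0.409), so that a difference was not detectable at this depth.

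The annotation has 2 further genes of this name, *aqp-9* and *aqp-12*, which are not members. *aqp-9* had 2.54 ± 0.457 CPM (SD, n = 3) as control and 2.76 ± 0.272 CPM as labelled level, or 0.12 on the log2 scale (edgeR adjusted p = 0.640). *aqp-12* was counted 8 to 15 times per control library and 11 to 19 times per labelled library. Neither was called.

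Summed over the 10 members, the aquaporin level was 338, 379 and 309 CPM in control replicates 1 to 3 and 273, 273 and 264 CPM in labelled replicates 1 to 3. The sum without *aqp-2* was 207 ± 30.8 CPM (SD, n = 3) for the control group and 198 ± 4.98 CPM for the labelled group. The groups were thus apart with *aqp-2* and overlapped without it. Per kilobase, *aqp-2* made up 34.2 ± 3.65% of the family in the control and 22.4 ± 0.900% (SD, n = 3) in the labelled libraries. The share of *aqp-7* went from 11.02 ± 0.0709% to 14.2 ± 2.17%, and that of *aqp-8* from 8.19 ± 1.27% to 10.2 ± 0.281%. Shares add up to the whole, so a lower share of one member raises the others.

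**Figure D3:**
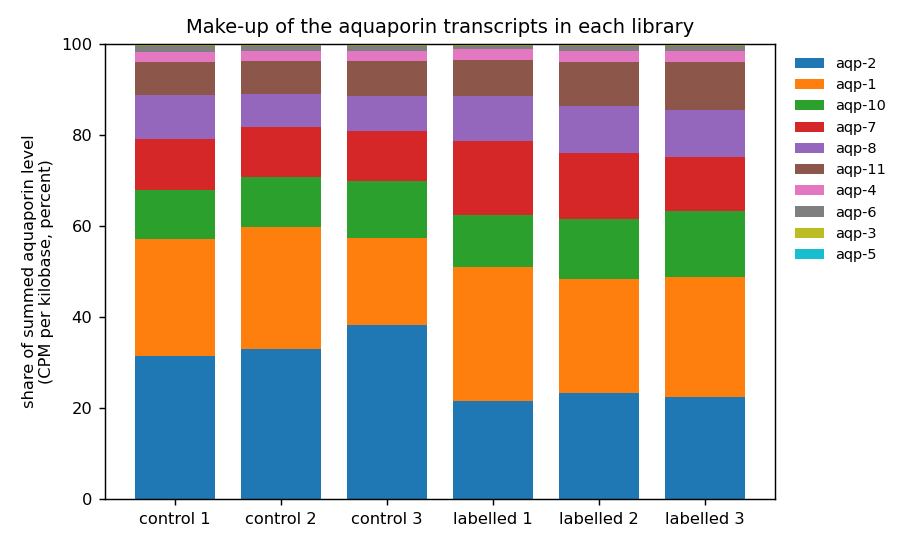
Share of each aquaporin gene in the summed aquaporin level of a library (CPM per kilobase, percent), for control replicates 1 to 3 and labelled replicates 1 to 3. The share of *aqp-2* (bottom, blue) is 31.3% to 38.3% in the control and 21.5% to 23.3% in the labelled libraries.

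The ratio of *aqp-2* to another member within a library does not depend on how libraries are scaled. Against *aqp-1* it was 1.21, 1.23 and 2.01 per kilobase in control replicates 1 to 3 and 0.734, 0.937 and 0.854 in labelled replicates 1 to 3. Against *aqp-10*, the member with a steady level, it was 2.88, 3.04 and 3.04 in the control and 1.87, 1.75 and 1.55 in the labelled libraries. All 3 labelled libraries were lower than all controls for 7 of the 9 ratios. Each ratio holds the level of *aqp-2*, so these are not 9 separate results. The ratios to *aqp-5* and *aqp-6* overlapped between groups, and that to *aqp-5* rests on few reads. The ratio to *aqp-6* was 28.6 ± 5.14 (SD, n = 3) for control and 23.8 ± 5.60 for labelled libraries, so that these genes did not move apart beyond their spread.

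**Figure D4:**
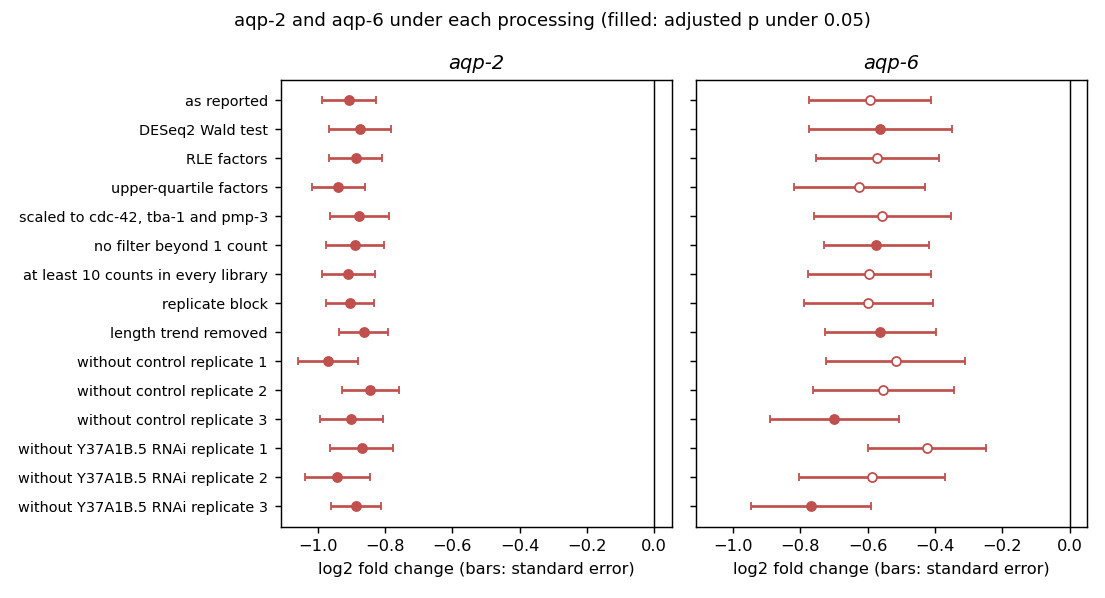
Log2 fold change of *aqp-2* (left) and *aqp-6* (right), labelled Y37A1B.5 RNAi against control, as reported and under each of 14 alternatives, with standard errors. *aqp-2* ranges from −0.97 to −0.84 and is called (filled) in all, and *aqp-6* ranges from −0.77 to −0.42 and is called in 5.

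The members are spread over 5 chromosomes, with 3 on II, 3 on V, 2 on X and 1 each on III and IV. The nearest protein-coding genes on both sides of *aqp-2* are *nlp-82*, a neuropeptide gene 4760 bp away, and *C01G6.2*, 5073 bp away. *nlp-82* was at 0.792 ± 0.220 CPM (SD, n = 3) among control and 0.594 ± 0.0539 CPM among labelled libraries (edgeR adjusted p = 0.276), and *C01G6.2* did not pass the filter. Next to *aqp-6*, *C32C4.16* lies 331 bp away on the same strand. Its level was 1.18 ± 0.0116 CPM (SD, n = 3) under control and 0.619 ± 0.0899 CPM under labelled conditions, with −0.92 on the log2 scale (edgeR adjusted p = 0.0145). Of the nearest protein-coding neighbours of all members, 12 were tested and 3 called, beside 13.7% of all genes, and 9 were not called. Besides *C32C4.16*, the called ones lie next to *aqp-11* and *aqp-10*. These are *dyf-2*, a gene of transport in cilia, at −0.65, and *ZK1321.4* at 0.50 (edgeR adjusted p of 0.00572 and 0.0389).

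Among 8871 genes whose mean reached 5 CPM, the 5 with the profile most like that of *aqp-2* over the 6 libraries were *kin-32*, *fmi-1*, *K07E3.2*, *R148.5* and *dex-1*, with Pearson's r of 0.997 to 1.00 on log2 CPM. *kin-32* encodes a kinase of the focal adhesion family, *fmi-1* a cadherin of the Flamingo family and *dex-1* a matrix protein. *fmi-1* had 37.6, 47.7 and 42.9 CPM in the control and 19.2, 21.8 and 19.3 CPM in the labelled libraries. The genes were picked by this correlation, so their likeness to *aqp-2* is not a separate result. A profile over 6 libraries in 2 groups is mostly the difference between the groups, and 346 genes reached an r of at least 0.95.

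Genes that make and use glycerol were examined next, since this solute passes through some of the channels. Of 7 such genes, 3 were called higher, beside 4.81% of all genes, and 0 lower with edgeR (4 higher and 0 lower with DESeq2). At an unadjusted p under 0.05, 5 were higher and 1 lower, beside 14.3% and 18.8% of all genes. None of the 7 overlapped between groups, with 6 genes higher and 1 lower, beside 18.4% and 22.1% of all genes. The median log2 fold change was 0.21. The called genes are *pgph-1*, *pgph-2* and *pgph-3*, homologs of the phosphatases that release glycerol from glycerol 3-phosphate. *pgph-3* had 16.3, 14.01 and 18.1 CPM for control and 26.1, 24.4 and 25.6 CPM for labelled replicates 1 to 3, a difference of 0.65 ± 0.098 (standard error) on the log2 scale at an edgeR adjusted p of 0.00272. *pgph-1* was at 17.7 ± 0.663 CPM for control and 24.5 ± 1.38 CPM for labelled libraries, higher by 0.46 on the log2 scale (edgeR adjusted p = 0.00519). For *pgph-2* it was 0.35 (edgeR adjusted p = 0.017), and this call was lost without control replicate 1 or 2 (edgeR adjusted p of 0.0635 and 0.0847). *gpdh-1* and *gpdh-2*, which encode glycerol 3-phosphate dehydrogenases, did not pass the test. *gpdh-1*, the one known to respond to salt, was measured at 1.85 ± 0.146 CPM for control and 2.13 ± 0.0301 CPM for labelled libraries (edgeR adjusted p = 0.317). *gpdh-2* had 176 ± 4.46 and 201 ± 13.3 CPM (edgeR adjusted p = 0.103). The glycerol kinase gene *R11F4.1* was the only one of the list with a negative value, at −0.20 (edgeR adjusted p = 0.121).

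Of 14 genes of the response to osmotic stress, 1 was called higher and 1 lower, beside 4.81% and 8.85% of all genes, and the median log2 fold change was −0.19. The higher gene was *hmit-1.2*, which encodes a carrier of the osmolyte myo-inositol. It had 2.98, 2.43 and 1.82 CPM in the control and 4.91, 4.32 and 3.43 CPM in the labelled libraries, which is 0.81 ± 0.19 (standard error) on the log2 scale at an edgeR adjusted p of 0.0236. Leaving out control replicate 2 or 3, or else labelled replicate 1 or 2, ended the call (edgeR adjusted p of 0.0554 to 0.0785), which left 1 gene of the list called. The lower gene was *ptr-23*, a patched-related gene required for the osmotic phenotype of *osm-8* mutants, with 35.3 ± 0.385 CPM (SD, n = 3) for control and 24.8 ± 1.81 CPM for labelled libraries. Its log2 fold change was −0.51 (edgeR adjusted p = 0.00262), and −0.28 once the trend of fold changes with transcript length was removed (edgeR adjusted p = 0.0164). Cuticle collagens of the annular furrows, whose mutants switch on the osmotic response, numbered 6 and had a median of −0.51. Only *dpy-10* was called among them, lower at −0.52 (edgeR adjusted p = 0.0296), beside 8.85% of all genes called lower. It lost the call when any 1 of control replicates 2 and 3 or labelled replicates 1 and 2 was left out. It also lost the call with scaling to the reference genes, where 0 of the 6 were called. At an unadjusted p under 0.05, 4 of the 6 were lower, beside 18.8% of all genes. With the replicate number as a block, 3 of the 6 were called lower, beside 1775 of all genes called lower in that fit.

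**Figure D5:**
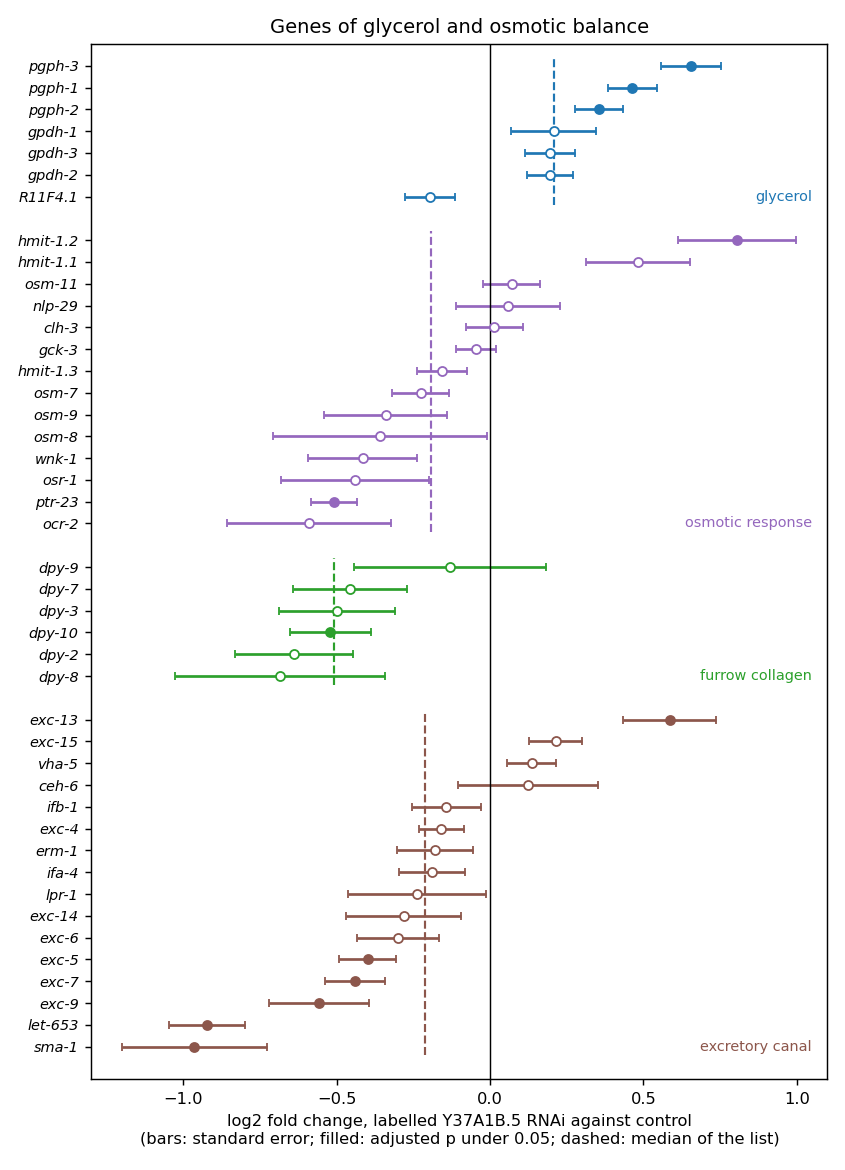
Log2 fold change, labelled Y37A1B.5 RNAi against control, with standard errors, of the tested genes in 4 lists, namely glycerol (blue), osmotic response (purple), furrow collagen (green) and excretory canal (brown). Filled points passed an adjusted p of 0.05, and the dashed lines mark the list medians of 0.21, −0.19, −0.51 and −0.21.

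The excretory canal, where several of the channels are found, was represented by 16 genes with a count. In libraries of whole worms, their reads from the canal and from other tissues cannot be told apart. Of these, 5 were called lower and 1 higher, beside 8.85% and 4.81% of all genes, and the median log2 fold change was −0.21. *sma-1*, the gene of a heavy beta spectrin, was at 398 ± 25.6 CPM (SD, n = 3) for control and 204 ± 79.0 CPM for labelled libraries, lower at −0.96 on the log2 scale (edgeR adjusted p = 0.0264). Its labelled replicate 3 was at 115.1 CPM, against 230 and 267 CPM in replicates 1 and 2. *sma-1* has a long transcript, and its value was −0.42 with the length trend removed. The call of *sma-1* was lost without any 1 of the control libraries (edgeR adjusted p of 0.0527 to 0.0925). *let-653*, the gene of a matrix protein of narrow tubes, fell from 25.7 ± 2.01 to 13.5 ± 2.32 CPM, with −0.92 on the log2 scale (edgeR adjusted p = 0.00157). *exc-5*, *exc-7* and *exc-9*, whose mutants form cysts in the canal, were lower, with log2 fold changes of −0.40, −0.44 and −0.56, and *exc-13* was higher, with 0.59 (edgeR adjusted p of 0.0183 to 0.0472). These 4 calls were lost in 3, 2, 6 and 3 of the 14 alternatives, in the order *exc-5*, *exc-7*, *exc-9* and *exc-13*. Without control replicate 2 none of them was called, and without control replicate 1 only *exc-5* was. Leaving out labelled replicate 1 ended the calls of *exc-5* and *exc-9*, leaving out labelled replicate 2 those of *exc-9* and *exc-13*, and *exc-9* was also lost with RLE factors and with scaling to the reference genes (edgeR adjusted p of 0.0508 and 0.0788). With the length trend removed, *exc-5* was at −0.19 (edgeR adjusted p = 0.122). *exc-4*, a chloride channel gene of the same canal, was not called, with 42.8 ± 2.77 CPM for control and 38.3 ± 1.47 CPM for labelled libraries (edgeR adjusted p = 0.159). Of the 16 genes, 2 were called without control replicate 1 and 1 without control replicate 2. In these fits, the calls among all genes fell as well, from 2050 to 862 and 727.

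Regulators known to act on aquaporin genes were not called. They are *daf-2*, *daf-16* and *hsf-1* of the insulin and heat shock pathways, *ceh-6*, the POU homeobox gene required for *aqp-8* in the excretory cell and also one of the excretory canal genes above, and *elt-2*, the main GATA factor of the intestine. Of these 5 genes, 0 passed the test with edgeR or DESeq2, beside 13.7% of all genes with edgeR. With only 5 genes, this count cannot be told apart from that share. At an unadjusted p under 0.05 with edgeR, 1 was lower, beside 18.8% of all genes. This was *daf-2*, the insulin receptor gene, with 204 ± 2.41 CPM (SD, n = 3) for control and 165 ± 28.5 CPM for labelled libraries, where replicate 3 was at 132 CPM. Without labelled replicate 3, 1 of the 5 genes was called, beside 2811 of all genes.

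Markers of tissues and stages were read beside these results. All 5 genes of the molting larva list (*mlt-10*, *mlt-11*, *nas-37*, *noah-1* and *fbn-1*) were called lower, with a summed level of 314 to 380 CPM in the control and 135 to 180 CPM in the labelled libraries. Of 7 markers of the epidermis, 2 were called lower, beside 8.85% of all genes. They were *nhr-25* at −0.87 and *elt-1* at −0.48 (edgeR adjusted p of 0.000634 and 0.00312). The summed level of the list was 220 to 226 CPM against 157 to 196 CPM. All 7 epidermal genes had negative log2 fold changes, beside 8111 of the 15003 genes tested. Their median was −0.46, beside −0.028 for all genes tested. Groups did not overlap for 2 of the 7, both lower, beside 22.1% of all genes that were lower without overlap. *dpy-7* of this list is also one of the furrow collagen genes above. The summed levels of both lists were thus lower beside the lower *aqp-2*, and their part in its difference was not tested. Of 6 intestinal markers, 0 were called, beside 13.7% of all genes. At an unadjusted p under 0.05 with edgeR, 1 was higher and 0 lower, beside 14.3% and 18.8% of all genes. The summed level of this list was 212 to 246 CPM against 220 to 257 CPM. Summed levels also overlapped between groups for the 8 markers of oocyte and eggshell, at 6327 to 6972 CPM against 6126 to 7381 CPM, and for the 5 markers of the germline, at 2070 to 2255 CPM against 1936 to 2450 CPM. The markers of muscle, neurons and early embryo overlapped as well. Of these 15 genes, *end-1* of the early embryo did not pass the filter. Only 1 was called, *tbx-38* of the early embryo, at −0.41 (edgeR adjusted p = 0.0429), beside 13.7% of all genes. At an unadjusted edgeR p under 0.05, 2 muscle, 1 neuron and 2 early embryo genes were lower, beside 18.8% of all genes. In these 3 lists, 0 were higher, beside 14.3%. Markers of every tissue listed were thus counted in each library.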

How the data were processed

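RNA-Seq was analyzed for 3 control and 3 labelled libraries, grouped by their titles. The authors deposited raw counts per gene. Before that, they had used SGA for quality trimming, TopHat2 2.1.0 for mapping to the WBcel235 genome, and counted uniquely mapped reads on the strand of a gene with featureCounts 1.5.0. Reads over several genes were left out, which can lower the counts of overlapping genes such as *aqp-4*. The table has 6 columns of counts, 0 of which stayed unused. The test across genes was run in edgeR 4.0.16 under R 4.3.3 (TMM factors, filterByExpr at minima of 10 per library and 15 in total, quasi-likelihood test, two-sided, Benjamini-Hochberg adjustment over 15003 genes). Standard errors are the log2 fold change divided by the root of F, and intervals are at 95%. CPM are on the TMM scale. The alternatives were DESeq2 1.42.0, RLE and upper-quartile factors, scaling by the qRT-PCR reference genes *pmp-3*, *cdc-42* and *tba-1*, other filters, a replicate block, removal of the length trend (loess, span 0.5) and leaving out each library. Positions and exon lengths come from Ensembl release 115 of WBcel235, which holds 46484 of the 46739 genes. A simulation with known changes was used to check the fit.

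The genes named are all members, the other *aqp* genes, at most 5 called genes and 3 others of each list, and the 5 genes most like a called member. *exc-9*, *daf-16*, *hsf-1* and the neighbouring and overlapping genes were named outside this rule, after their values were seen. The members and lists were chosen with earlier results of these data known, and the lists were written from general knowledge. Of 19 excretory canal genes listed, 16 were used. No sequence was read, so the planned description of promoters and proteins was not run.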

Additional observations from a re-analysis of the deposited data

How the results depend on the processing

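*aqp-2* kept its direction and its call in all 14 alternatives (−0.97 to −0.84, adjusted p of 2.8e-19 to 0.00301 with edgeR or DESeq2), and the members other than *aqp-2* and *aqp-6* were called in none. *aqp-6* was negative in all 14 and called in 5, namely with DESeq2 (−0.56), without the filter (−0.57), with the length trend removed (−0.56), without control replicate 3 (−0.70) and without labelled replicate 3 (−0.77), so that 2 aquaporins were called there and 1 to 2 over the fits that left out a library. The cause was not tested. With the length trend removed, 5 glycerol and 2 furrow collagen genes were called. The same fit called 2900 of all genes, with 1736 higher, against 2050 with 722 higher in the main fit. Without the filter, 4 osmotic response genes, 5 furrow collagen genes, 1 regulator and 3298 of all genes were called. DESeq2 and upper-quartile factors each called 2 furrow collagen genes, beside 2507 and 2044 of all genes. Scaling to the reference genes called 0 furrow collagen genes and 1 regulator, beside 1530 of all genes. When 1 library was left out, the calls ranged from 2 to 4 for glycerol, 1 to 3 for osmotic response, 0 to 3 for furrow collagen, 1 to 7 for excretory canal and 0 to 1 for regulator genes, and from 727 to 2811 for all genes. Other scalings moved the median of all genes by −0.033 (upper-quartile factors) to 0.028 (reference genes), and removal of the length trend moved it by 0.074. The share of higher genes among those called went from 35.2% to 23.8% (upper-quartile factors), 48.2% (DESeq2) or 59.9% (length trend removed).

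With the replicate number as a block, 2917 of all genes and 3 furrow collagen genes were called, and *aqp-2* was at −0.90. The study describes independent experiments, but the sources do not state that equal numbers in both groups mark the same one. The numbers were not taken as pairs, since deviations from the group means correlated by only 0.0626 for the libraries numbered 2, against 0.135 and 0.121 for 1 and 3. Each library did correlate best with the one of its own number, a hint from the data that they may share an experiment. The order of levels per kilobase kept 8 to 10 of 10 places without a control library, and 6 in the labelled libraries. Depth limits *aqp-5*, *aqp-12* and *aqp-3*. With 3 libraries a group, an exact permutation test cannot go below p = 0.1.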
